A study of Mus musculus with 8 samples.

Results

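The RNA targets of DDX5, an RNA helicase of the DEAD-box family, were mapped in mouse intestinal epithelium by eCLIP. In this assay UV light fixes proteins to the RNA they touch, DDX5 is pulled down with an antibody (IP), and its RNA is counted against an input of the same fragment size. The genes described here are C3, which the study follows in the colon, and 9 other genes of epithelial innate defence: Pigr, Reg3b, Reg3g, Lypd8, Dmbt1, Nos2, Saa1, Duox2 and Retnlb. They were chosen by name, 10 of 21951 protein-coding genes in GENCODE M21, and every listed peak that overlapped one of them on its own strand by at least 1 base was taken. This gave 18 of 1278 peaks in the small intestine, 76 of 16455 in the colon list named mAb and 31 of 9146 in the colon list named rAb. A peak is called a site when its log2 fold of IP over input and its −log10 p both exceeded 3, the cutoff of the study.

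The small intestine list joins 2 CLIP and 2 input libraries from wild-type C57BL/6 females aged 8 weeks, merged into reproducible peaks, and each colon list is labelled with 1 CLIP and 1 input sample of C57BL/6 epithelium. The deposited colon peaks may nevertheless come from merged replicates, as their naming and the study's methods point to more than 1 mouse. All 8 samples were epithelium released with EDTA. The colon genotype label reads wild type, whereas the protocol text gives the mAb and rAb mice as Apcfl/+ CDX2Cre and aged 120 days, in which Cre under the Cdx2 promoter acts on a floxed Apc allele; the study's methods describe younger wild-type females, and the labels alone do not settle it. Both colon CLIP samples carry 1 antibody catalogue number, and the labels do not say how mAb and rAb differ. With 1 list per tissue and antibody name, no p-value between lists can be given, and values are set side by side. The protocols also differed, paired-end in the small intestine and single-end in the colon, so tissue, genotype, age, protocol and merging cannot be told apart.

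These genes form several layers of the mucosal barrier. C3 is the central complement protein, cleaved to coat microbes and to release an inflammatory fragment. Pigr carries polymeric IgA across the epithelial cell into the lumen. Reg3b and Reg3g are secreted C-type lectins that bind bacteria, Lypd8 is a GPI-anchored colonic protein that binds flagella, Dmbt1 is a mucosal scavenger receptor built of repeated domains, and Retnlb is a goblet cell product that acts on bacterial membranes. Saa1 is an acute-phase protein that carries retinol, Nos2 makes nitric oxide and Duox2 makes hydrogen peroxide. All are background roles, not measurements of this study.

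The sequences of the sites that carry the results are shown first, from the GRCm38 genome in the direction of the RNA. The C3 site lay on the minus strand at chr17:57210176-57210253, in exon 30 of 41, wholly in coding sequence, and its capitals mark the 74 bases that the mAb and the rAb peak share.
C3 coding site: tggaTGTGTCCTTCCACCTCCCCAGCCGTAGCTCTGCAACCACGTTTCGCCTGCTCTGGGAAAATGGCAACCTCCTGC
The Dmbt1 site, the other colon site of these genes, lay on the plus strand at chr7:131086933-131086977, in the intron between exons 27 and 28, and capitals mark the whole peak.
Dmbt1 site: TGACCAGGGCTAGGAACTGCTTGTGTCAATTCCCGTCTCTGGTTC
The Reg3b sites of the small intestine lined up on the plus strand at the end of exon 5, chr6:78372866-78372938, and the start of exon 6, chr6:78373199-78373254, with the interval of highest log2 fold of each in capitals.
Reg3b exon 5: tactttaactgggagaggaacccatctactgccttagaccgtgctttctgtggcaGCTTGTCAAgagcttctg
Reg3b exon 6: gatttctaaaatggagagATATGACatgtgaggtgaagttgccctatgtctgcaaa
The Pigr coding site of highest log2 fold in the small intestine lay on the plus strand at chr1:130848566-130848634, with its 65 coding bases in capitals and the first bases of the following intron in lower case.
Pigr coding site: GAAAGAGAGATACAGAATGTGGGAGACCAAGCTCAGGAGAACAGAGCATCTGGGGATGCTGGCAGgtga
The highest peak of all on these genes lay in the 3′ UTR of Pigr, and its central 30 bases, chr1:130851951-130851980, are shown because they are a simple GA-rich repeat.
Pigr 3′ UTR centre: GAAGAAGAAGAAGAAGAAGAAAGACAGACA

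C3 had 1 listed peak in each colon list, both were sites, and both ended at the same base at their 3′ side. In mAb the peak reached 4.47 on the log2 fold scale, with −log10 p at 4.91. In rAb it reached 4.07, with −log10 p at 7.23. No C3 peak was listed in the small intestine, whose list holds only peaks past both cutoffs, so a weaker signal there would not appear. The colon interval covered codons 1294 to 1320 of the 1663 codons of C3, inside an exon of 159 bases.

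Few reads stood behind this site. The deposited values of the mAb peak trace to 15 IP reads and 1 input read, the latter being also what an input of 0 with a pseudocount would give. The exact 95% interval of its log2 fold, from counting error alone, ran from 1.77 to 9.87. The rAb peak traced to 16 IP reads and 3 input reads, with an interval from 2.26 to 6.49. Both intervals lay above 0, which follows from the −log10 p cutoff on the same reads and adds no separate evidence of enrichment. Both reached below 3, so counting error alone leaves it open whether the fold is above the cutoff. The reads compare IP with input as pooled in each deposited list, whether from 1 library or from merged replicates, and give no spread between mice. PCR copies make such intervals too narrow where they remain.

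Beside the other sites of its list, C3 stood in the upper part by log2 fold in mAb, at rank 46 of 201, and near the middle in rAb, at rank 100 of 182. By −log10 p its rank was 112 in mAb and 101 in rAb. The traced IP reads were close to those of a typical site, whose median was 16.5 in mAb and 14 in rAb. In each list few genes with a lone called peak had it as a site, 29 of 2000 genes, 1.45%, in mAb and 27 of 1585 genes, 1.7%, in rAb. Of all called peaks 1.22% in mAb and 1.99% in rAb were sites. C3 was chosen because the study follows it in these data, so nothing is read from its place among these shares.

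The sequence of the C3 site was 59.0% G and C, near the upper quartile of 59.2% for the 47 coding sites of mAb, whose median was 51.1%. The predicted folding energy of the 101 genomic bases around its centre was −21.2 kcal/mol, against a median of −24.8 and quartiles of −31.0 and −20.8 for the same coding sites. None of its bases was repeat-masked, and no other place in the genome held 90% of it at 90% identity or more, so no near-identical copy was found that its reads could belong to.

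C3 and Dmbt1 were the genes of the 10 with a colon site. In mAb, 7 of the 10 genes had a called peak and 2 of these 7 had a site, beside 138 of 5189 genes with a called peak, 2.66%. In rAb, 4 had a called peak and 1 of these 4, C3, had a site, beside 109 of 3608 genes, 3.02%. C3 is here because the study follows it in these data, so these counts are a description and not independent evidence. Of the members' called peaks, 2 of 76 were sites in mAb, 2.63% with an exact 95% interval from 0.320% to 9.19%, beside 1.22% of all called peaks. In rAb 1 of 31 was a site, 3.23% with an interval from 0.0816% to 16.7%, beside 1.99% of all. The intervals treat peaks of 1 gene as independent, which they are not, and with so few sites they are wide, so nothing is read from them about the members against the list. Among peaks with at least 10 traced IP reads, 2 of 15 were sites in mAb, where 16.7% of all such peaks were, and 1 of 2 in rAb, where 16.8% were.

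**Figure D1:**
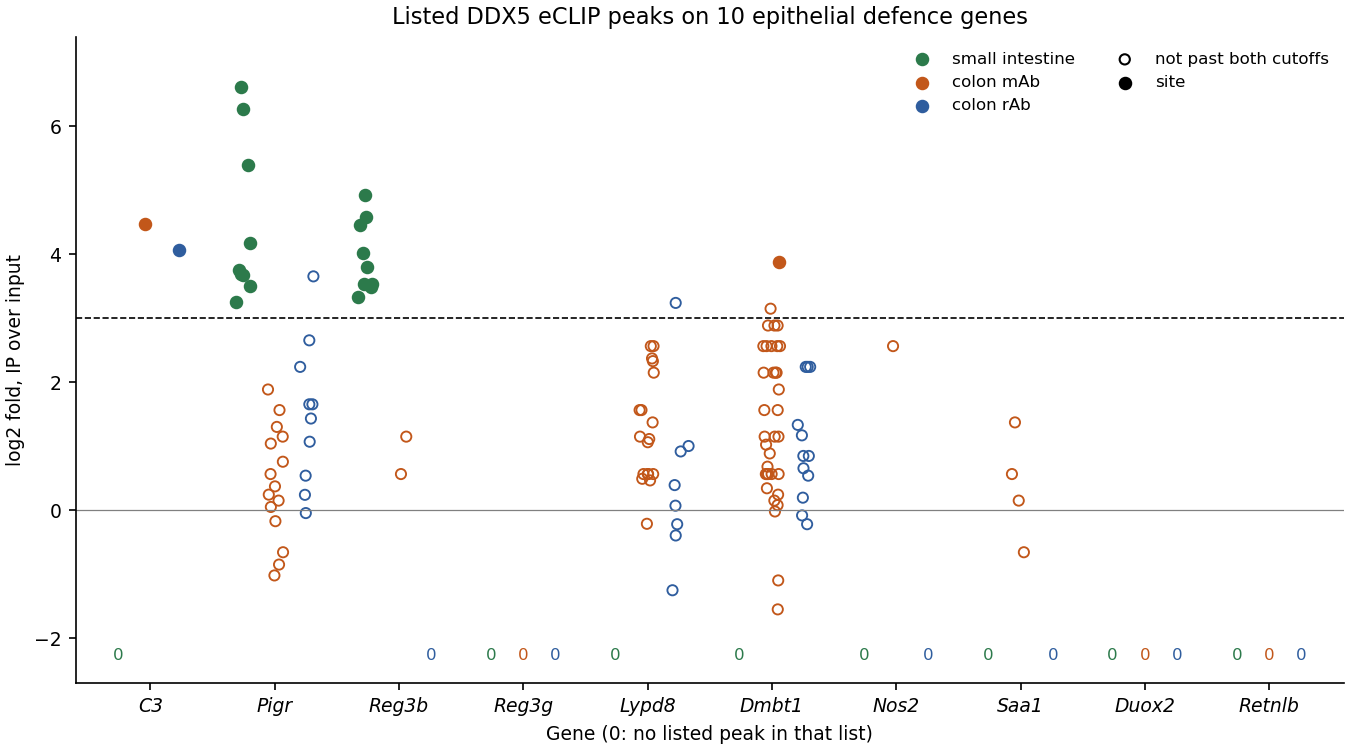
Log2 fold of IP over input for every listed peak on the 10 genes, by gene (x axis) and list (colour), with the cutoff of 3 dashed and a filled point for a site. C3 and Dmbt1 hold the filled colon points, and Pigr and Reg3b hold all 18 points of the small intestine; a 0 marks a gene with no listed peak in that list.

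Having a called peak at all was more common than having a site. In mAb 7 of the 10 genes had a called peak, where 22.6% of protein-coding genes did, and in rAb 4 of 10, where 15.6% did. In the small intestine 2 of 10 did, where 2% of protein-coding genes had a listed peak and 100% of listed peaks were past both cutoffs. Reg3g, Duox2 and Retnlb had none in any list. The median log2 fold of the members' peaks was 1.09 in mAb, against 1.15 over the whole list, and 0.92 in rAb, against 2.24 over the whole list. Of the members' peaks, 88.2% in mAb and 80.7% in rAb lay above input, against 83.9% and 92.1% of all peaks. The rAb list median of 2.24 is the fold that 3 IP reads and 2 input reads give. The median traced rAb peak had 3 IP reads, so peaks of very few reads weigh on that list median. Members and list were not compared at equal reads, so lower enrichment of the members in rAb is not read from these values. Of the 31 rAb peaks 12 lay on Dmbt1, with a median log2 fold of 0.85, and 8 on Lypd8, with a median of 0.23. The C3 peak stood at 4.07 and the Pigr median at 1.54, and no test was made.

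Dmbt1 had more called peaks than any other of these genes, 35 in mAb and 12 in rAb, spread along a gene of 89578 bases. Its site stood at a log2 fold of 3.89, with −log10 p only just past the cutoff at 3.10, from 10 IP reads and 1 input read, with an interval from 1.07 to 9.33. It lay 753 bases after exon 27 and 1082 bases before exon 28 of the main transcript, and no rAb peak overlapped it. The next Dmbt1 peak by log2 fold was also intronic, at 3.15 but with −log10 p at 1.70, from 6 IP reads. That peak was repeat-masked over 77.1% of its length and had 2 further matches within Dmbt1.

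The other Dmbt1 peaks were small. Of the 35 mAb peaks 24 lay in coding sequence, 10 in introns and 1 in the 3′ UTR, with a median log2 fold of 1.15 and a range from −1.55 to 3.89. In rAb 10 lay in coding sequence and 2 in introns, with a median log2 fold of 0.85 and a highest of 2.24. The most IP reads at a traced Dmbt1 peak were 13 in mAb and 6 in rAb. Overlapping peaks of both colon lists formed 8 pairs, and at none of them did either list reach the cutoffs.

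Dmbt1 is built of repeated domains, and its peaks shared sequence within the gene. Of 29 mAb peaks of at least 20 bases, 16 matched another place in Dmbt1 itself over 90% of their length at 90% identity or more, and of 11 rAb peaks 8 did. Reads of those peaks may not be placed with certainty among the repeats, which was not tested. The site itself had no such match.

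**Figure D2:**
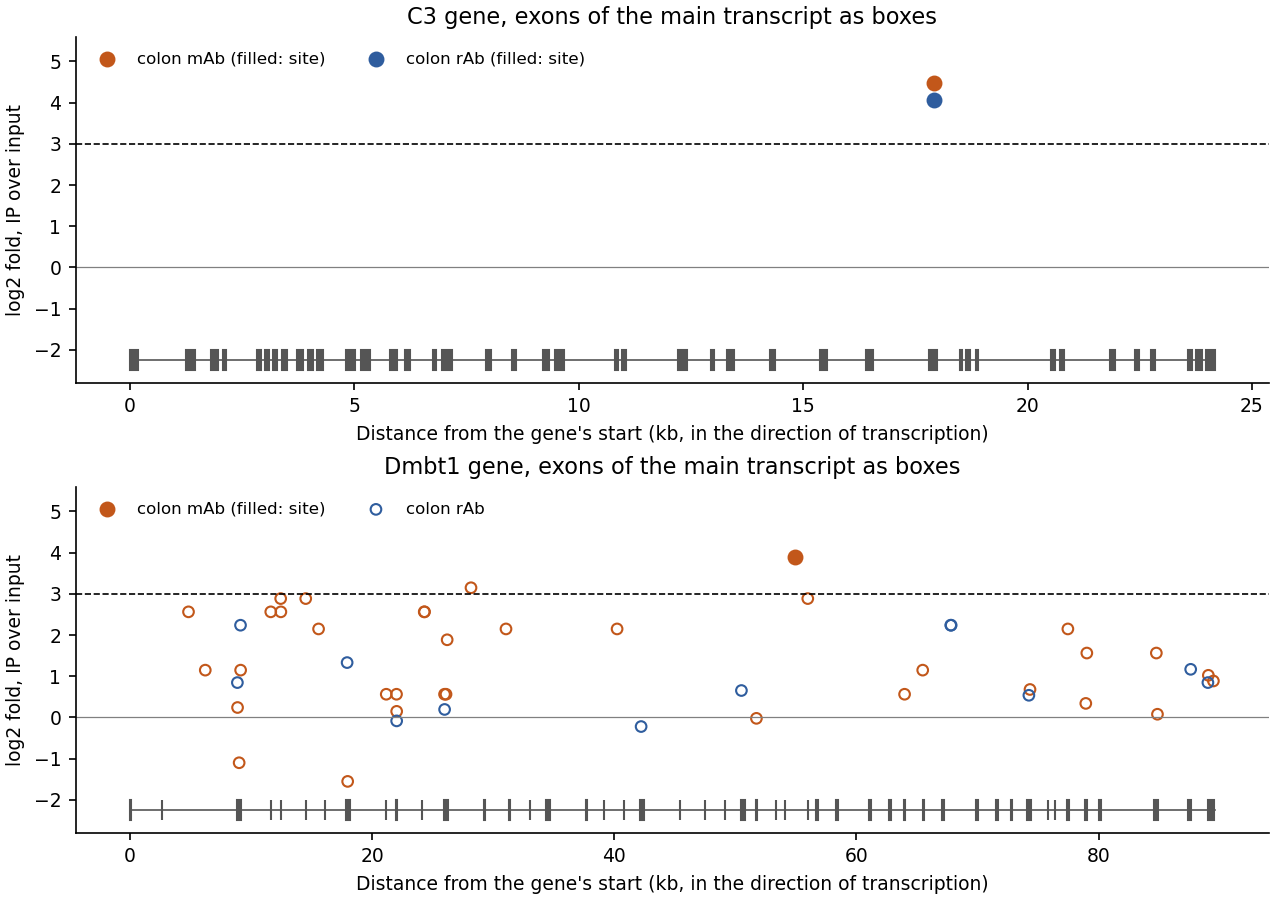
Log2 fold of each colon peak on C3 (top) and Dmbt1 (bottom) against the distance of its centre from the gene's start in kb, with exons as boxes and sites filled. On C3 both lists mark the same exon at 4.47 and 4.07, whereas the Dmbt1 peaks spread over the gene and the filled mAb point at 3.89 stands between exons with no rAb point near it.

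Lypd8, whose product is known from the colon, had 18 called peaks in mAb and 8 in rAb and no site. The mAb peaks ran from −0.21 to 2.56 with a median of 1.13 on the log2 fold scale, and 224 IP reads were traced to them, more than to any other of these genes. One of them fell just outside the cutoffs, a 3′ UTR peak with a −log10 p of 3.03 but a log2 fold of 2.33, from 17 IP and 5 input reads, with an interval from 0.83 to 4.12. The traced Lypd8 peak with the most IP reads had 28 of them against 30 input reads and a log2 fold of 0.46.

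In rAb the Lypd8 peaks were shallower. They ran from −1.25 to 3.24 with a median of 0.23, and the highest was an intronic peak of 3 IP reads and 1 input read with a −log10 p of 1.34. Of the 8 overlapping pairs, the coding pair at chr11:58390027-58390114 stood at 1.37 in mAb and −1.25 in rAb. Reads were not traced at this rAb peak, so no interval can be given for it.

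Pigr was the one gene of the 10 with a listed peak in all 3 lists. The small intestine list held 9 sites on it, 1 in the 5′ UTR, 4 in coding sequence and 4 in the 3′ UTR, with log2 folds from 3.26 to 6.61. In the colon it had 15 called peaks in mAb and 10 in rAb and no site. The mAb peaks ran from −1.02 to 1.89 with a median of 0.37, and the rAb peaks from −0.05 to 3.65 with a median of 1.54. Its highest colon peak, in the 3′ UTR in rAb, had 4 IP reads and 1 input read, with −log10 p at 1.87, with an interval from 0.32 to 9.28.

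The 5′ UTR site of Pigr in the small intestine had a log2 fold of 3.67, and the coding sites had 3.51, 3.26, 4.18 and 3.75 in order along the RNA. The last pair met at the junction of exons 7 and 8, so they form 1 stretch of 88 bases of mRNA. In the 3′ UTR, of 1356 bases, the log2 folds were 3.69, 5.40, 6.61 and 6.26, and all 4 peaks stood at 400, the largest −log10 p in the list.

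These 3′ UTR peaks were partly repeat sequence. The peaks of 5.40 and 6.61 were repeat-masked over 100% of their length and had 11951 and 1130 further matches in the genome, while the neighbour of 6.26 was masked over 5% and had none, and the first of 3.69 was masked over 41.9% and had none. Reads of the masked peaks could come from other places, and their part in these values was not tested. Of the coding sites, the one of 23 bases had 2 further matches and the others had none.

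Some small intestine sites of Pigr met colon peaks. The small intestine table holds only peaks past a log2 fold of 3 and the colon lists hold all called peaks, so this filter alone favours a lower colon value and no direction is read from the pairs. The coding site of 3.51 overlapped a mAb peak of 0.56, from 5 IP and 5 input reads. The site of 4.18, printed above, overlapped a mAb peak of −0.17, and the site of 3.75 overlapped 1.04 in mAb and 1.43 in rAb. The 3′ UTR site of 3.69 overlapped 0.37 in mAb and −0.05 in rAb. The mAb peak of 1.04 was the deepest of the traced colon peaks of Pigr, with 32 IP and 23 input reads and an interval from 0.22 to 1.88. The rAb peak that overlapped this mAb peak had 12 and 14 reads and an interval from 0.19 to 2.65. Both intervals lay below 3, so over these colon peaks the libraries were deep enough to show a fold under the cutoff. The mAb peak spans 116 bases against the 23 of the small intestine site, and the rAb peak shares 1 base with that site. The colon fold over the site alone is thus not given.

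**Figure D3:**
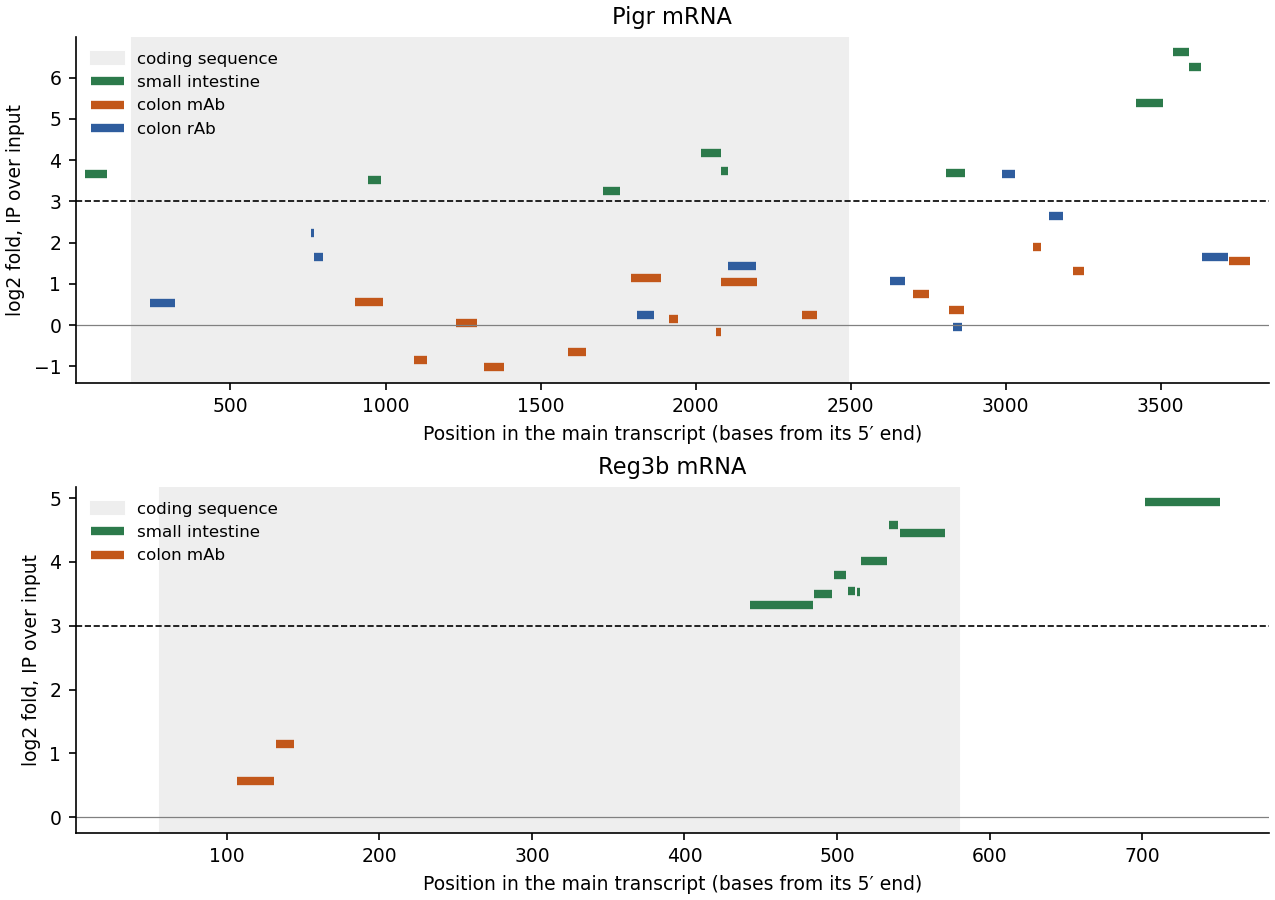
Log2 fold of IP over input (y axis) for each peak along the main transcript of Pigr (top) and Reg3b (bottom), in bases from its 5′ end, with coding sequence shaded and the cutoff of 3 dashed. The small intestine bars lie above 3 on both RNAs and reach 6.61 near the 3′ end of Pigr, and only 1 colon bar, the rAb peak at 3.65 on Pigr, lies above the line.

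Reg3b carried 9 sites in the small intestine and Reg3g, the other lectin of the pair, none. Of the 9, 8 were coding and ran without a gap across the junction of exons 5 and 6, bases 443 to 571 of the mRNA, as 129 bases cut into adjacent intervals. On exon 5 their log2 folds were 3.33, 3.49, 3.80, 3.54 and 3.53, and on exon 6 they were 4.02, 4.58 and 4.46. The ninth lay in the 3′ UTR with 4.93. Adjacent intervals are not independent, and the 9 sites amount to 2 stretches of the RNA. The 3 peaks of at least 20 bases had no further match in the genome, the Reg3g gene included.

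In the colon Reg3b had 2 called peaks in mAb, of 0.56 and 1.15, each with 3 IP reads, and none in rAb. They lay in exons 2 and 3, away from the stretch listed in the small intestine. Their intervals ran from −2.34 to 3.46 and from −1.98 to 4.73, so a site was not detectable at this depth.

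Saa1 had 4 called peaks in mAb, of 1.37, 0.56, 0.15 and −0.66, and none in rAb or in the small intestine. The peak of 1.37 rested on 7 IP and 4 input reads, with an interval from −0.60 to 3.59. That of 0.56 rested on 3 and 3, with an interval from −2.34 to 3.46, and the peaks of 0.15 and −0.66 were not traced. Of its 3 longer peaks, 2 had a match of at least 90% identity in Saa2 and 1 of these in Saa3 too. Reads of these peaks may not belong to Saa1 alone, which was not tested. Nos2 had 1 called peak, in exon 5 in mAb, with a log2 fold of 2.56 from 4 IP reads and 1 input read and an interval from −0.77 to 8.19. The traced peaks of both genes were thus too shallow to be placed above or below the cutoff.

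**Figure D4:**
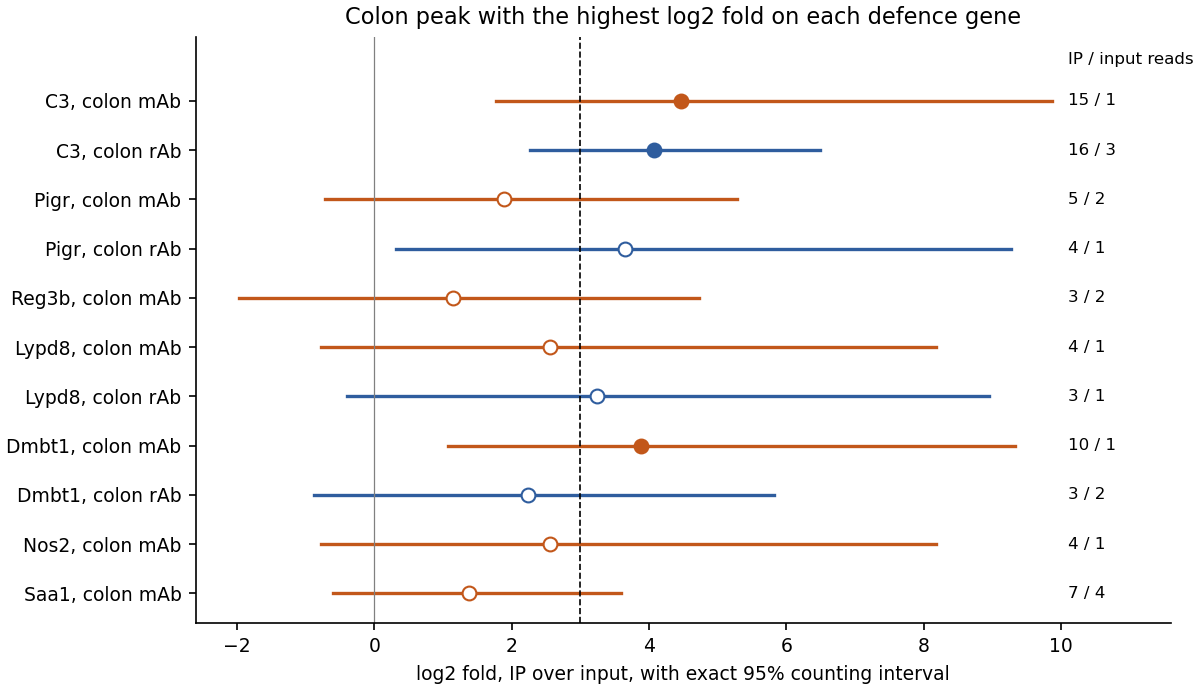
Log2 fold of the traced colon peak with the highest fold on each gene that had one, with its exact 95% counting interval as a bar and its IP and input reads at the right; filled points are sites. The bars of C3, of the Dmbt1 site and of Pigr in rAb lie above 0, and every bar reaches both sides of the dashed cutoff of 3.

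The overlap of both colon lists over these genes went beyond C3 but not as sites. There were 20 overlapping pairs of peaks, 1 on C3, 8 on Dmbt1, 8 on Lypd8 and 3 on Pigr. In 13 of the 20 both lists lay above input, and in 7 the sign differed between them. At each of these 7 the value below input had a −log10 p of 0 and no traced reads. The sign is therefore not read as a disagreement between the lists. The share over all overlapping pairs of the lists was not computed. C3 was the one gene at which both peaks of a pair were sites.

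**Figure D5:**
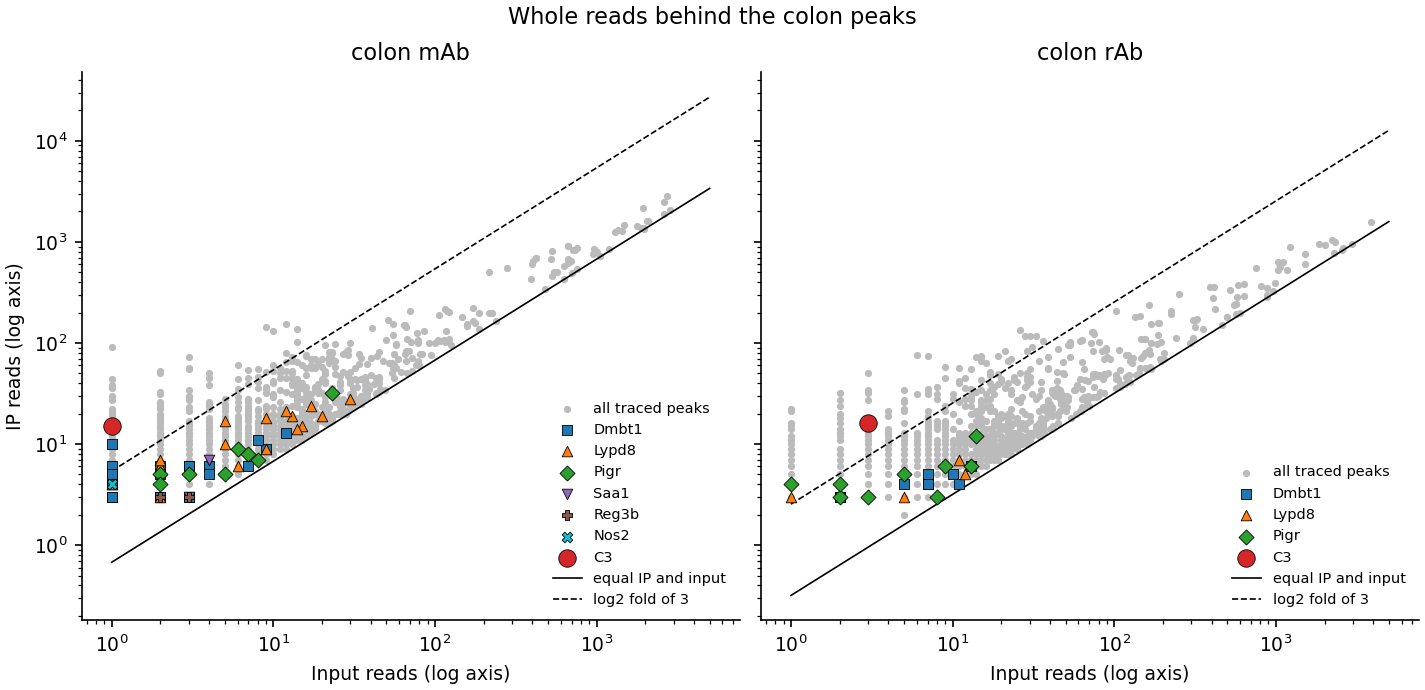
IP reads against input reads, both on log axes, for all traced peaks of mAb (left) and rAb (right) in grey, with the defence genes as coloured marks, a solid line for equal IP and input and a dashed line for a log2 fold of 3. C3 lies above the dashed line with 15 and 16 IP reads, and Lypd8 reaches 28 IP reads between the lines.

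Counted by peak, the members lay in coding sequence more often than the lists as a whole. Coding peaks made up 50 of 76, 65.8%, in mAb against 49.8% of all peaks, and 21 of 31, 67.7%, in rAb against 55.5%. In the small intestine they made up 12 of 18, 66.7%, against 31.7%. Of these 12, 8 were adjacent intervals of 1 Reg3b stretch and 4 lay on Pigr, so this share counts pieces of 2 genes. Intronic peaks made up 19.7% of the members' peaks in mAb, 12.9% in rAb and 0 of 18 in the small intestine, where 36.7% of all listed peaks were intronic. The shares over all peaks also count peaks outside genes and on non-coding genes, which these protein-coding genes cannot hold. Part of the difference in coding share is thus built in. Peaks of 1 gene share its structure, and these shares are a description without a test.

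Genes that behaved most like C3 were sought by overlapping coding sites in both colon lists. There were 21 such genes, which is 56.8% of the 37 genes with a coding site in mAb and 40.4% of the 52 in rAb, and 17 of them, C3 included, had no listed small intestine peak. The nearest to C3 by the sum of absolute differences of best log2 fold were Xpo6, an export receptor, at 0.60, Cnot8, a deadenylase, at 0.68, Inf2, a formin, at 0.68, Cramp1l at 0.69 and Usp8, a deubiquitinase, at 0.75. Xpo6 stood at 4.26 in mAb and 4.46 in rAb, against 4.47 and 4.07 for C3. None of the 5 is a member of the defence lists, and no more is read from the likeness than the values. Besides C3, 2 of the 17, Slu7 and Sec11a, had exactly 1 called peak in each colon list.

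The other genes of the same pathways had no site in any list. Sites are rare among called genes as a whole: 2.66% of genes with a called mAb peak had one, and 3.02% for rAb. Of all protein-coding genes, 22.6% had a called mAb peak and 15.6% a called rAb peak. At these shares few sites or none would be found among so few called genes, so their absence does not set C3 apart from its pathway. Of 33 further complement genes, 5 had a called peak in mAb and 3 in rAb, none in the small intestine. Cfb, a protease subunit that works with C3 in the alternative pathway, had a coding peak of 3.24 in rAb from 3 IP reads and 1 input read and of 1.15 in mAb from 3 and 2. C4b, the complement protein of the classical pathway that is built like C3, had 2 mAb peaks of at most 1.15, and Clu, which restrains the terminal complex, had 4 mAb peaks of at most −0.17 and 3 rAb peaks of at most 0.33. No traced peak of these complement genes held 10 or more IP reads, and the mAb peaks of Clu were not traced. Both C3 peaks are sites, and the fewest IP reads at any site were 10 in mAb and 7 in rAb. The depth at C3 thus does not set it apart from these genes.

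Of 22 further antimicrobial peptides and lectins, 7 had a called peak in mAb and 6 in rAb, none in the small intestine. The highest with at least 10 IP reads was Zg16, a goblet cell lectin, at 2.44, with −log10 p at 4.07, from 22 IP and 6 input reads in mAb. Of 6 immunoglobulin genes, 3 had a called peak in each colon list. Jchain, which joins the IgA that Pigr carries, had a best log2 fold of 0.64 in mAb and 1.00 in rAb, and Cd74, an antigen presentation chaperone, 0.98 and 1.81. Igha, the IgA heavy chain, had 9 peaks in each list, all below input. Of 14 oxidase and nitric oxide genes, 4 had a peak in mAb and 3 in rAb, and Noxo1, the organizer of Nox1, was highest at 2.98 from 5 IP reads. Of 24 sensing and signalling genes, 6 had a peak in each colon list, and the most any of them reached was 3.65, at Nod2, a receptor for bacterial wall fragments, with 4 IP reads in rAb.

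Markers were read to see which cells the libraries held. The small intestine list holds only peaks past both cutoffs, so a marker missing there may belong to cells that were present. The colon lists hold all called peaks, so marker counts are not compared between tissues. In the small intestine 8 of 10 enterocyte markers (Fabp1, Fabp2, Apoa1, Apoa4, Apob, Sis, Anpep and Mttp), 5 of 9 epithelial markers (Epcam, Cdh1, Krt8, Krt20 and Vil1) and the goblet marker Fcgbp had a site, and no colonocyte, Paneth, blood cell or stromal marker had a listed peak. In mAb 8 of 9 epithelial, 5 of 6 colonocyte and 6 of 6 goblet markers had a called peak, and Krt8 with 4 sites and Muc2 with 1 had sites. In rAb 7 of 9 epithelial, 1 of 6 colonocyte and 3 of 6 goblet markers had one, and 2 of 5 Paneth markers had one in each colon list. The highest marker peaks with at least 10 IP reads that were no site were Car1 of colonocytes at 2.79 in mAb and Col1a1 of stroma at 2.54 in rAb. Of the blood cell markers 3 of 11 had a called peak in each colon list, with a median log2 fold of −0.44 in mAb and 0.92 in rAb. Of the stromal markers 4 of 6 did in each, with 90 peaks at a median of −0.81 in mAb and 77 at 0.07 in rAb. The 3 marker sites of rAb were all on Igkc, an antibody light chain, at up to 3.70. The defining T cell markers had no called peak in either colon list. How the share of non-epithelial RNA bore on the values of the defence genes was not tested.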

How the data were processed

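Peak lists of DDX5 eCLIP were analysed as deposited. The submitters' processing notes name cutadapt 1.9.1, STAR 2.4.0i, SAMtools 1.4.1 and the build mm10, and the study used the ENCODE eCLIP pipeline. The authors deposited for each peak a −log10 p (at most 400) and a log2 fold of IP over input. The small intestine table merges both replicates and holds only peaks past the cutoff of 3, with no value per replicate. Peaks were assigned to GENCODE M21 genes with bedtools 2.31.1; the 5 transcripts that the small intestine table names at these genes had the same version and ends there. In the colon lists, the smallest whole reads giving both deposited values were sought, with the commonest fold read as 3 IP reads to 1 input read and a tolerance of 1% on −log10 p. This traced 12908 of 13011 mAb peaks with a −log10 p above 0 and 8253 of 8282 rAb peaks. Tested on data simulated with the same formulas, 98.2% of mAb and 99.6% of rAb pairs were recovered exactly. This shows how far both values fix the reads, and cannot test whether the deposited values were made this way. Total library depths are not given in the files. Intervals are exact (Clopper-Pearson), cover counting error only, and shares are described without a test.

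Sequences came from the RefSeq copy of GRCm38, folding from RNAfold 2.7.2 and genome matches from BLAST 2.17.0, over peaks of at least 20 bases and the assembled chromosomes. The members and gene lists were chosen with earlier results of these data known. Named genes were all members, any listed gene with a site, up to 3 more per list with at least 10 IP reads, and up to 5 like C3; Cfb, C4b, Clu, Igha, Noxo1 and Nod2 were chosen after their values were seen. The symbols Lypd8l and Chi3l1 had no match in GENCODE M21. A further list with no sample named in the labels was not used here.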

Additional observations from a re-analysis of the deposited data

Results flagged for a closer look

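At 2 places on Pigr a small intestine site overlapped a colon peak of the opposite sign, above input in the one and below it in the other. Every small intestine value exceeds 3 by the filter of its list, so any colon peak below input gives an opposite sign and a difference above 3. The coding site at exon 7 stood at 4.18 in the small intestine and −0.17 in mAb, a difference of 4.35 on the log2 fold scale, and no rAb peak lay there. The 3′ UTR site stood at 3.69 in the small intestine and −0.05 in rAb, a difference of 3.73, while the mAb peak there stood at 0.37. The difference was not tested, since each list is 1 value, and tissue, genotype, age, protocol and merging cannot be told apart. Reads were not traced at colon peaks below input. Both of these had a −log10 p of 0, so no interval can be given and the sign is not read as a difference. The mAb peak overlapped 18 bases of the 69-base coding site, and the rAb peak 31 bases of the 62-base 3′ UTR site.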

How the results depend on the processing

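Of 43 alternatives to 9 results, 34 left the value within 1.5 times or within its interval. A −log10 p cutoff of 5 took C3 out of mAb (0 sites), left 0 defence genes and a share of 0% there, and kept C3 in rAb. A log2 fold cutoff of 4 left 1 defence gene in mAb, C3, and 8 small intestine sites; counting exons only also left 1 in mAb, since the Dmbt1 site is intronic. Joining intervals within 10 bases made 11 sites of the 18. Among peaks with at least 10 IP reads the share of sites was 13.3% in mAb and 50% in rAb, by fewer peaks counted. A log2 fold cutoff of 1 added Lypd8 in mAb, for 3 genes. Leaving out 3 small intestine sites with a match elsewhere in the genome, an alternative chosen after seeing the data, gave 15. Reading the single mAb input read of C3 as 0 moved the lower bound from 1.77 to 2.41. No paired analysis was possible because the replicate numbers belong to small intestine libraries merged into 1 list; leaving out a replicate was not run for the same reason. The depth limits the colon values: the fewest IP reads at a site were 10 in mAb and 7 in rAb.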
